A study of Selaginella moellendorffii with 8 samples.

Results

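The 150 gene models described here were those with the most even RNA level across shoot tip, root, rhizophore and leaf of the lycophyte Selaginella moellendorffii. They were taken from a count table of 25004 models. The members were chosen by measured level alone. Levels are given as CPM, read counts relative to the library total, scaled by TMM, the trimmed-mean method of edgeR that corrects library totals for differences in RNA composition. A model qualified if the lowest of its 8 libraries lay from 20 to under 200 CPM, which 3016 models (12.1% of all) did. These were ranked by the ratio of the highest to the lowest library, and the 150 with the smallest ratio (4.97% of the window) were kept. Evenness was therefore the criterion of choice, and the ratios and organ differences below describe the members without testing them.

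Genes read at a steady level in every organ are often called housekeeping genes, because many act in processes that all living cells carry out, such as protein synthesis and turnover, RNA processing and membrane traffic. Plant biologists use them as references when the RNA of other genes is compared between tissues, and a reference is only as good as its evenness in the tissues at hand. Lycophytes branched off early from the other vascular plants, and their rhizophore, a leafless axis that later bears roots, has no exact counterpart in seed plants. None of the 150 members (0 of 25004 models in all) matched the reference table of gene names used here, so each is known by its identifier alone and no function is given.

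Each organ had 2 libraries, each from 40 pooled pieces of tissue of untreated plants grown from stem cuttings. The shoot samples were the distal ends of green young shoots, 10 to 20 days after branching, and the leaf samples were entire microphylls, the small single-veined leaves of lycophytes, aged 10 to 14 days. Roots were outgrowths of the ventral angle meristem aged 10 to 20 days and 5 to 10 cm long, with a root cap and root hairs. Rhizophores came from the same meristem at 4 to 7 days and 2.5 to 3.5 cm, without cap, hairs or green colour. Age and organ therefore cannot be told apart where the rhizophore is compared. Library totals ran from 2826533 counts (leaf replicate 1) to 27891111 (root replicate 2). The libraries of an organ are labelled as biological repeats with nothing said of separate plants, so their spread may be partly technical. In the authors' deposited table of organ averages the Root and Rhizophore values followed a different grouping of the library labelled rhizophore replicate 2, and the organ means and tests are also given with that library counted as root, which leaves rhizophore with 1 library. In bulk tissue, fewer cells of a type and less RNA per cell cannot be told apart.

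The members formed the lower edge of a continuous distribution and not a separate group. Their ratios of highest to lowest library ran from 1.19 to 1.67 with a median of 1.55, against a median of 3.29 over the 3016 models of the window. Only 8 models had a ratio of 1.3 or less, 58 were at 1.5 or less and 414 were at 2 or less. The last member, Smoe_00044097, had a ratio of 1.67, and the first model left out, Smoe_00043922, had the same count in every library. The order of the table alone decided between them. The member before it, 181652.v1, also stood at 1.67, as did 437944.v1, the second model left out.

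**Figure D1:**
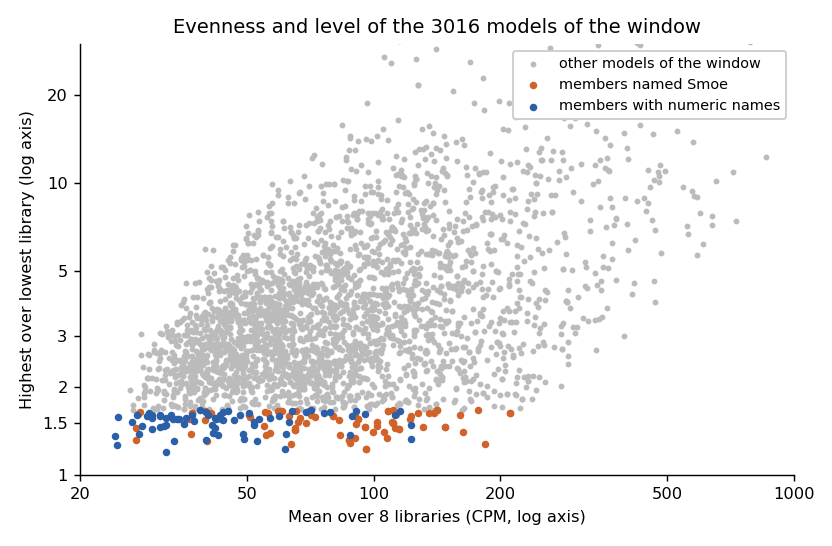
Each point is a model of the window, with its mean over 8 libraries in CPM on a log x axis and its ratio of highest to lowest library on a log y axis; 60 models beyond 1000 CPM or a ratio of 30 are not drawn. The 150 members, in orange for Smoe names and blue for numeric names, lie at ratios of 1.19 to 1.67 along the lower edge of the cloud.

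The most even model was 140479.v1. Its level was 30.4 and 35.4 CPM in shoot, 35.3 and 29.8 CPM in root, 32.8 and 29.7 CPM in rhizophore, and 30.1 and 31.8 CPM in leaf, for replicates 1 and 2 respectively. Shoot and root each held a library near the top and a library near the bottom of this range, so the organs overlapped. The mean over all libraries was 31.9 ± 2.38 CPM (SD, n = 8), and the organ means lay between 31.0 CPM in leaf and 32.9 CPM in shoot.

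The next models were as narrow at other levels. The model 443353.v1 was at 60.5 and 58.5 CPM in shoot, 56.5 and 67.4 CPM in root, 54.9 and 65.0 CPM in rhizophore, and 67.2 and 60.8 CPM in leaf, a ratio of 1.23. The models Smoe_00015381 and Smoe_00015707 shared a single set of counts and are taken up again below. Both stood at 103 and 98.6 CPM in shoot, 101 and 87.4 CPM in root, 85.5 and 95 CPM in rhizophore, and 92.6 and 105 CPM in leaf, also a ratio of 1.23. In both cases the highest and the lowest library belonged to different organs whose other library lay in between. The fifth, 123861.v1, was at 21.2 and 26.2 CPM in shoot, 26.2 and 24.5 CPM in root, 24.7 and 21.4 CPM in rhizophore, and 24.5 and 26.7 CPM in leaf. The sixth, Smoe_00017499, was at 193 and 194 CPM in shoot, 162 and 178 CPM in root, 176 and 185 CPM in rhizophore, and 176 and 206 CPM in leaf, a ratio of 1.27. Of these 6 it had the smallest coefficient of variation, at 7.44%, and both its root libraries lay below both its shoot libraries.

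**Figure D2:**
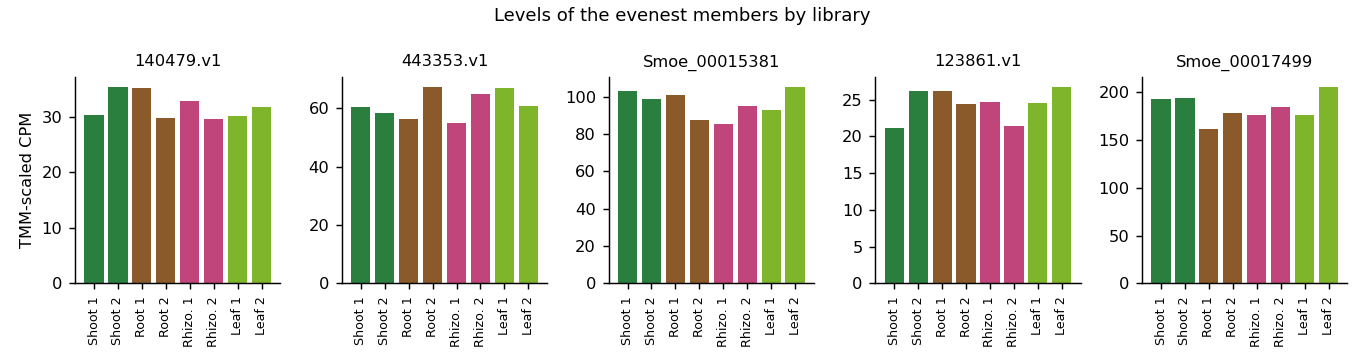
Bars give the TMM-scaled CPM of the 5 distinct count profiles among the 6 most even members, 1 bar per library, with the y axis starting at 0 and coloured by organ. Every bar of 140479.v1 lies between 29.7 and 35.4 CPM, and every bar of Smoe_00017499 between 162 and 206 CPM.

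The members covered most of the window in level. Their means ran from 24.2 to 211 CPM with a median of 60.9 CPM, against a median of 78.5 CPM over the window. A small ratio holds a member's mean close to its lowest library, so these medians do not rank the members below the window. The lowest library had a median of 47.9 CPM over the members and 35.8 CPM over the window. The highest were Smoe_00043777 and Smoe_00043600, again a pair with a single set of counts, at 223 and 215 CPM in shoot, 264 and 208 CPM in root, 162 and 201 CPM in rhizophore, and 193 and 226 CPM in leaf. Rhizophore replicate 1 was the low library there and root replicate 1 the high one, while their partner libraries lay among those of shoot and leaf. The lowest was 167350.v1, at 21.8 and 23.9 CPM in shoot, 25.03 and 23.7 CPM in root, 25.9 and 25.5 CPM in rhizophore, and 20.2 and 27.5 CPM in leaf. Its highest and lowest values were the 2 leaf libraries. The third lowest mean, after 123861.v1, was that of 160700.v1, which ranged from 20.4 CPM in rhizophore replicate 1 to 32.1 CPM in leaf replicate 2.

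Depth set part of what could be seen at these levels. In leaf replicate 1 the members had 47 to 449 counts with a median of 126.5, so that counting alone gave a standard error of 4.72 to 14.6% of the value. In root replicate 2 they had 997 to 10066 counts and a counting error of at most 3.17%. These errors cover counting only, and PCR copies cannot be told from separate molecules here.

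Several members were copies of each other in the count table. In all, 25 members (16.7%) belonged to 13 pairs whose counts were identical in each of the 8 libraries, and in 12 of these pairs both models were members. The thirteenth was the pair of Smoe_00044097 and Smoe_00043922 at the limit. The 150 members therefore held 138 distinct count profiles. All 25 had names beginning with Smoe, and so did 267 of the 279 models of the window that had a partner by the looser criterion of counts within 0.1 log2 in every library. Those 279 were 9.25% of the window. The sources used here do not say how reads matching several places were counted, so the level of a pair is uncertain by the share of reads its models have in common.

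The pairs differed in how they varied. The pair of Smoe_00045931 and Smoe_00046090 had a ratio of 1.31 and a mean of 87.2 CPM each. The pair of Smoe_00010022 and Smoe_00009954 had a ratio of 1.44 and a mean of 115 CPM each, and that of Smoe_00050508 and Smoe_00049962 a ratio of 1.62 at only 36.8 CPM each. Means of 95.5 CPM were found for Smoe_00011600 and Smoe_00011539, 148 CPM for Smoe_00043193 and Smoe_00043414, 111 CPM for Smoe_00054417 and Smoe_00054471, and 91.8 CPM for Smoe_00025060 and Smoe_00025334. The remaining pairs were Smoe_00007453 with Smoe_00007553, Smoe_00014072 with Smoe_00014057, and Smoe_00035303 with Smoe_00035069, at 80.0 to 142 CPM. Over all 13 pairs the mean ran from 36.8 to 211 CPM.

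More members than models in general had names beginning with Smoe, a prefix that the sources used here do not explain. Of the 150 members 80 (53.3%) carried it, against 1248 of 3016 (41.4%) in the window and 2719 of 25004 (10.9%) in the whole table. Counting each distinct count profile once, the shares were 49.3% of 138 members and 38.7% of 2883 profiles of the window. The share fell along the window, from 51.6% in the most even 754 models through 42.4% and 37.4% in the next sets of 754 to 34.1% in the least even 754. The 150 models ranked next after the members had 58.7%, so the share was not particular to the members. It also moved with level: it was 87.3% among the 102 models with a minimum of 200 CPM or more and 2.11% among the 10996 models listed at 0 in some library. Within the members, those with Smoe names had a median mean level of 88.9 CPM and those with numeric names 41.9 CPM, whereas their median ratios were 1.54 and 1.56.

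The small deviations that remained are given by library and by organ. The median member was above its own mean by 0.09 on the log2 scale in root replicate 1 and below it in root replicate 2, with a deviation of -0.11. For shoot the medians were 0.07 and 0.04, for rhizophore -0.06 and 0.08, and for leaf -0.12 and 0.07. Root, rhizophore and leaf thus each had 1 library above and 1 below the members' means, and shoot had both above. These signs hold for the default TMM scaling. The members' median log2 difference of root from shoot was -0.15 with TMM computed against leaf replicate 2 and 0.17 against leaf replicate 1. The median absolute log2 difference between the 2 libraries of an organ was 0.24 for root, 0.22 for rhizophore, 0.20 for leaf and 0.09 for shoot. Between organ means it was 0.20 for shoot and root, 0.17 for shoot and rhizophore, 0.10 for shoot and leaf, 0.15 for root and rhizophore, 0.20 for root and leaf, and 0.16 for rhizophore and leaf. These are differences of means of 2 libraries, which vary less than single libraries, so the sizes within and between organs are not compared. Over the window the differences within organs were 0.37, 0.58, 0.23 and 0.10 for root, rhizophore, leaf and shoot.

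**Figure D3:**
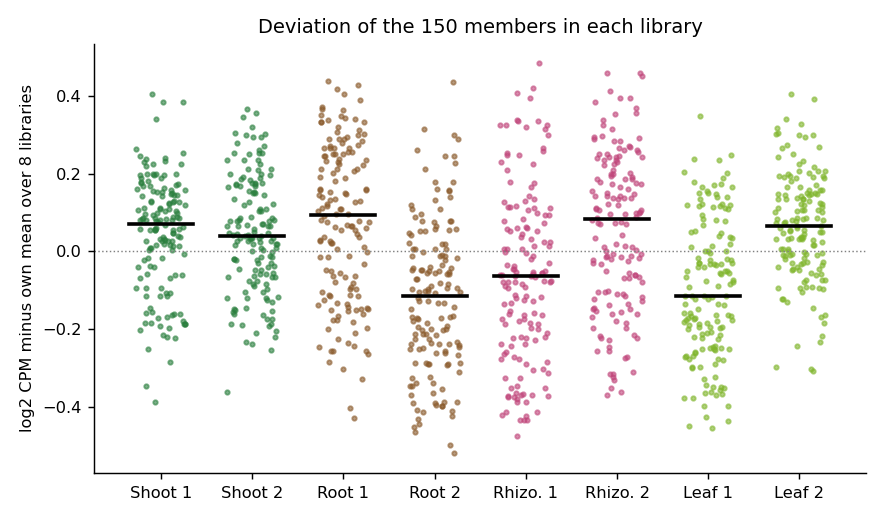
Each point is 1 of the 150 members in 1 library, with its log2 CPM minus its own mean over the 8 libraries on the y axis; black lines are medians. With the default TMM scaling the medians lie between -0.12 in leaf replicate 1 and 0.09 in root replicate 1. The medians of the libraries of root, of rhizophore and of leaf fall on opposite sides of 0.

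The extremes fell on some libraries more than on others. Rhizophore replicate 1 was the lowest library for 38 members, root replicate 2 for another 38 and leaf replicate 1 for 36, while leaf replicate 2 was lowest for 3. Root replicate 1 was the highest for 37 members and rhizophore replicate 2 for 30. Leaf replicate 1, the library with the fewest counts, was at an extreme for 43 members in all. With TMM computed against another library this number ran from 33 to 72, so the extremes depend on the scaling. In 15 members (10%) the highest and the lowest library came from the same organ, 7 times from rhizophore, 6 times from root and 2 times from leaf.

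A few members were split mainly by the replicates. In root the widest split was in 142083.v1, at 48.5 and 29.98 CPM, with the other organs between 32.5 and 49.0 CPM. In rhizophore it was Smoe_00044044, at 152 CPM in replicate 1 and 93.1 CPM in the library labelled replicate 2, while shoot stood at 91.6 and 92.5 CPM. In leaf it was Smoe_00050340, at 94.3 and 148.8 CPM. Only in shoot was the widest split under 1.5-fold, in 107381.v1 at 36.3 and 52.01 CPM. For each of these 4 the libraries of the split organ spanned much of the range of the other organs.

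Some members nevertheless leaned to an organ in both of its libraries. The model Smoe_00014663 was at 63.6 and 61.3 CPM in root, 46.5 and 50.1 CPM in shoot, 40.3 and 45.0 CPM in rhizophore, and 43.9 and 54.8 CPM in leaf. Both root libraries lay above the other 6, and the root mean was 1.33 times the mean of the other organs. The model 269014.v1 was at 143 and 142 CPM in rhizophore, 133 and 121 CPM in root, 86.7 and 104 CPM in shoot, and 87.8 and 106 CPM in leaf. Its rhizophore libraries were the highest, its root libraries came next without overlap, and shoot and leaf overlapped. Its rhizophore mean was 1.34 times that of the other organs, the largest such ratio for rhizophore.

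Toward shoot, 443461.v1 leaned most, at 119 and 103 CPM in shoot against 71.4 to 99.2 CPM in the other 6 libraries, a ratio of means of 1.32. Smoe_00037024 came next at 63.9 and 69.1 CPM against 42.0 to 62.2 CPM. In both, the shoot libraries did not overlap the rest. The second model for root, 37919.v1, was at 113 and 102 CPM in root, but the library labelled rhizophore replicate 2 reached 103 CPM, so that root overlapped rhizophore. The second for rhizophore, 164019.v1, was at 83.1 and 89.4 CPM there and overlapped root replicate 1 at 85.7 CPM. Leaf had the weakest leanings. The model 267336.v1 was at 40.0 and 33.2 CPM in leaf, where shoot replicate 1 reached 33.4 CPM, and 181652.v1 was at 43.9 and 45.3 CPM, where shoot replicate 2 reached 45.6 CPM. Their ratios of the leaf mean to the other organs were both 1.22. All 8 of these models kept the direction of their leaning under DESeq2's size factors and upper-quartile factors. They also did so with TMM computed against each of the other 7 libraries, and the ratios ran from 1.15 to 1.53. The models were picked as the largest leanings in the same counts, so this is no independent support for them.

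**Figure D4:**
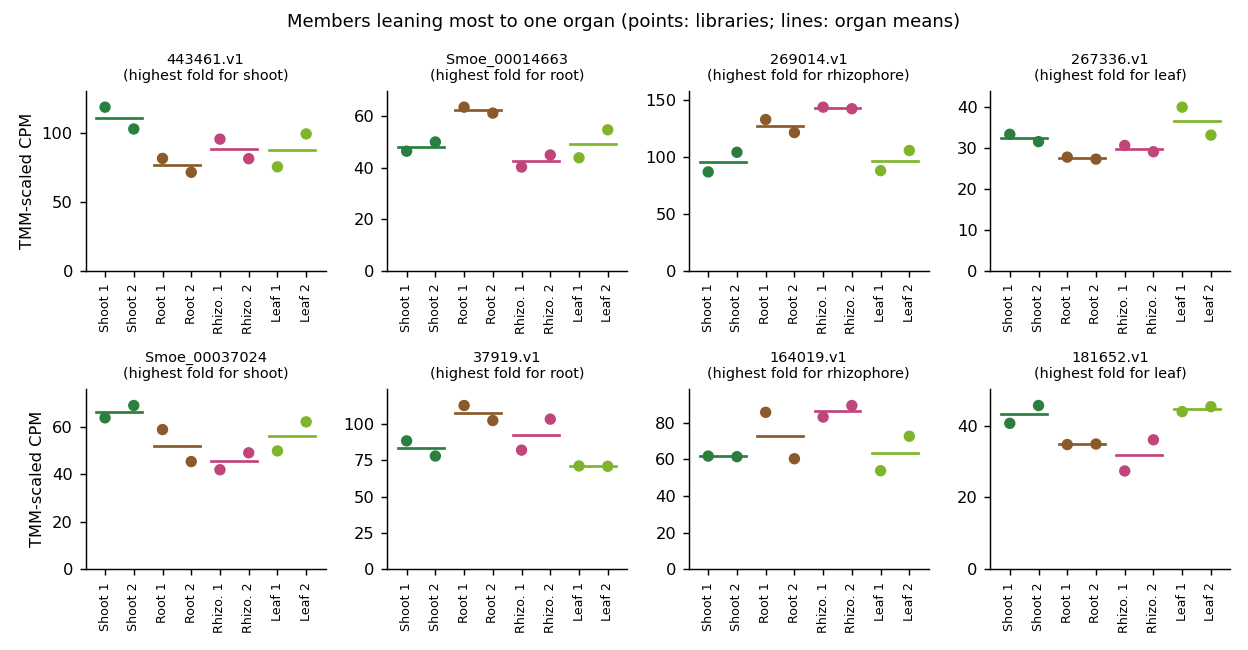
Points give TMM-scaled CPM in each of the 8 libraries and lines the organ means for the 2 members with the largest ratio of an organ to the other 3, for shoot, root, rhizophore and leaf from left to right; y axes start at 0. Both points of the leading organ lie above all others for 443461.v1, Smoe_00037024, Smoe_00014663 and 269014.v1, and overlap another organ in the other 4 models.

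Over all 150 members such separation was set beside its share in the window. Both shoot libraries lay above the other 6 in 7 members (4.67%) and below them in 3 (2%), where the window had 10.7% and 2.42%. Both root libraries lay above in 3 and below in 16 (10.7%), against 7.66% and 22.5%. Both rhizophore libraries lay above in 9 (6%) and below in 6 (4%), against 21.6% and 13.5%. Both leaf libraries lay above in 1 and below in 4 (2.67%), against 2.12% and 3.71%. Because the rule compared the same libraries, nothing is read from these counts.

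The count of members by leading organ depended on the scaling. With TMM the highest organ mean was that of shoot in 56 members, rhizophore in 39, root in 38 and leaf in 17. Over the 9 other scalings named above the count for shoot ran from 9 to 59 and that for root from 26 to 82. Leaf and rhizophore ran from 16 to 51 and from 13 to 44. Separation of both libraries of an organ from the other 6 moved over these scalings as well. Root lay above in 1 to 38 members and below in 3 to 24, and rhizophore in 2 to 14 and 2 to 28. The members' median log2 difference of root from shoot was -0.10 with TMM, 0.07 with DESeq2's size factors and 0.17 with TMM computed against leaf replicate 1. No organ can therefore be called the highest for the members as a set, since shifts of this size exceed the differences themselves.

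Rhizophore replicate 2, as labelled, was also moved to root. The ratio of the highest to the lowest organ mean then had a median of 1.28 and reached 1.66, against 1.254 and 1.61 with the labels kept. Organ means lie within the range of their libraries, so under any grouping this ratio cannot exceed the limit of 1.67 set by the rule. Its small size was thus fixed by the choice of members. With that library as root, shoot had the highest mean in 58 members, root in 40, rhizophore in 34 and leaf in 18. Rhizophore, then a single library, had the lowest in 68, where it had 42 with the labels kept. In the authors' deposited table, whose values they normalized and averaged themselves, the same ratio had a median of 1.29 over the members and ran from 1.01 to 1.67, against a median of 2.23 over the window. In that table the leading model 140479.v1 had a Shoot value of 34.5, a Root value of 32.1, a Rhizophore value of 35.8 and a Leaf value of 32.5. The organ with the highest value was the same there as in the organ means computed here with the labels kept for 103 of the 150 members. The comparison therefore mixes an apparently different grouping of the library labelled rhizophore replicate 2 with the authors' own normalization. The averages come from the same libraries, so this is no independent measurement.

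Evenness held only relative to the scaling, since the members took up unequal shares of the libraries. As a share of all counts, the 150 members together made up 0.699 and 0.697% in shoot, 1.71 and 1.69% in root, 1.27 and 1.44% in rhizophore, with leaf at 0.817 and 0.796%. The widest of the 95% Wilson intervals, for counting error alone, was the share plus or minus 0.0105 percentage points. The highest share was 2.45 times the lowest, and root and rhizophore stood above shoot and leaf without overlap. TMM factors ranged over 2.74-fold, from 0.634 in shoot replicate 2 to 1.74 in root replicate 2. After TMM the members summed to 10676 ± 611 CPM (SD, n = 8 libraries), with 1.16-fold between the highest and the lowest library. Without the factors no member (0 of 150) stayed under the ratio of 1.67, and the members' ratios had a median of 2.78 and ran from 1.91 to 4.12.

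**Figure D5:**
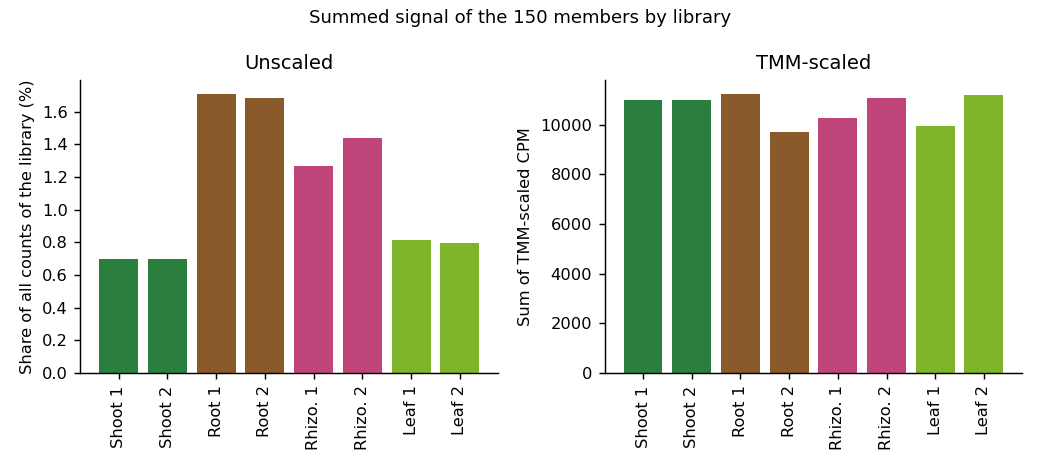
The left bars give the members' summed share of all counts of each library in percent, and the right bars their summed TMM-scaled CPM, both from 0. The left bars range from 0.697% in shoot to 1.71% in root, and the right bars are level within 1.16-fold.

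Membership also moved with the choice of scaling. Applying the rule with each of the 9 other scalings, 50 of the 150 members were chosen every time and none was chosen in no other scaling. DESeq2's size factors returned 121 members and upper-quartile factors 95. TMM computed against another library returned 100 (leaf replicate 1) to 136 (rhizophore replicate 2), where the default reference was rhizophore replicate 1. Among the members returned every time, Smoe_00017499, singled out after its values were seen, had the lowest upper value: its ratio ran from 1.15 to 1.32 over all 10 scalings. For 140479.v1 the ratio ran from 1.19 to 1.42, and for 443353.v1 from 1.16 to 1.5. In contrast 269014.v1 and Smoe_00043777 were chosen in only 3 of the 9, and Smoe_00044044 in 2.

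Single libraries mattered as well. With root replicate 1 or 2 left out the rule returned 90 or 82 members, and without rhizophore replicate 1 or the library labelled replicate 2 it returned 73 or 60. Without either shoot library it returned 136 and 140, and without leaf replicate 1 or 2 it returned 118 and 137. Leaving out any root or rhizophore library also moved the default TMM reference to leaf replicate 1. With the reference kept at rhizophore replicate 1, the numbers were 97 and 103 without root replicate 1 or 2 and 75 without the library labelled rhizophore replicate 2.

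In the test across all models, edgeR's quasi-likelihood test with Benjamini-Hochberg adjustment, no member was called between any pair of organs at an adjusted p under 0.05. Since the rule used the same contrasts, these counts describe the choice and support nothing. For rhizophore against root 0 of 150 members were called, where 36.6% of all models were called, and DESeq2 called 2 (32.6% of all) and limma-voom 0 (42.8%). For rhizophore against shoot edgeR called 0 (21.8% of all), DESeq2 1 (35.7%) and limma-voom 0 (20.8%). For root against shoot the counts were 0 (13.6%), 7 (29.8%) and 0 (40.4%), in the same order of tools. For leaf against root they were 0 (9.76%), 5 (26.0%) and 0 (31.8%), and for leaf against rhizophore 0 (20.0%), 1 (35.3%) and 0 (14.9%). Leaf against shoot gave 0 with each tool, where 0.0127, 0.261 and 0.00845% of all models were called. At an unadjusted p under 0.05, edgeR's test held 1 member over the 6 comparisons, Smoe_00014861 for root against shoot. Over all models 45.4, 36.2, 44.8, 38.8, 35.1 and 3.07% were under that level, in the order of comparisons just given.

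Smoe_00014861 was at 44.1 and 44.6 CPM in root and 69.7 and 73.1 CPM in shoot. Its root libraries lay below the other 6, and the fitted log2 difference, root minus shoot, was -0.69 (SE 0.30, adjusted p = 0.107 by edgeR's test). DESeq2 called it, with a log2 fold change of -0.51 and an adjusted p of 0.0455. The model 269014.v1 was called by DESeq2 in 4 comparisons, higher in rhizophore and in root than in shoot and in leaf. In edgeR's test its log2 fold change of rhizophore against shoot was 0.58 (SE 0.31, adjusted p = 0.198), and of root against shoot 0.41 (SE 0.31, adjusted p = 0.324). Without the library labelled rhizophore replicate 2 edgeR called it for rhizophore against shoot (log2 fold change of 0.75, adjusted p = 0.0195), and without replicate 1 likewise (0.77, adjusted p = 0.0132). Those fits used the shifted TMM reference. Leaving out either library also left rhizophore with 1 library, assumed to vary like the others, and let 24709 and 24708 models through the filter on low counts. Without the library labelled replicate 2, edgeR called 22 members for root against shoot (54.7% of all models), 7 for leaf against root (42.9%), 3 for rhizophore against shoot (32.2%) and 2 for rhizophore against root (36.0%). It called 0 for leaf against rhizophore (29.8%) and leaf against shoot (0.518%). Without replicate 1 it called 21 for root against shoot (55.0%), 7 for leaf against root (43.5%), 7 for rhizophore against shoot (42.0%) and 7 for leaf against rhizophore (39.7%). It called 0 for rhizophore against root (38.3%) and leaf against shoot (0.603%).

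DESeq2 called 10 members in at least 1 comparison. Those called higher in root than in shoot were 98552.v1, Smoe_00014688, Smoe_00014663, 269014.v1 and the pair of Smoe_00043193 and Smoe_00043414. Smoe_00014688 was at 108 and 92.5 CPM in root and 70.2 and 73.9 CPM in shoot, while leaf replicate 2 reached 92.8 CPM, so that root overlapped leaf. Those called lower in leaf than in root were 37919.v1, 230443.v1, 269014.v1 and the same pair. The model 230443.v1 was at 53.4 and 55.4 CPM in leaf, below its other 6 libraries. Smoe_00014663 and Smoe_00030549 were called lower in rhizophore than in root.

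With rhizophore replicate 2 as root, edgeR called 0 members in every comparison, and the shares over all models were lower than with the labels kept. They were 1.55% for rhizophore against root, 0.0486% for rhizophore against shoot, 7.11% for root against shoot, 5.80% for leaf against root, 0.00405% for leaf against shoot and 0% for leaf against rhizophore. In that fit the spread within organs came from shoot, leaf and 3 libraries counted as root.

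A p over the threshold does not show that a member was equal between organs. The intervals give the width of each estimate. Members were chosen for small differences in these same libraries, so their intervals are centred near 0 by choice and lack their stated coverage. The counts of members within 2-fold therefore describe the choice and set no limit on the true differences. The 95% interval of a member's log2 fold change reached 0.71 to either side in the median for rhizophore against root, and from 0.65 to 0.83 over all members and comparisons. It lay wholly within 2-fold in either direction for 112 of the 150 members for rhizophore against root, 113 for rhizophore against shoot, 102 for root against shoot, 131 for leaf against shoot, 105 for leaf against root and 115 for leaf against rhizophore. Among all 23662 models tested the corresponding numbers were 663, 3667, 778, 6631, 804 and 3261. Members' log2 fold changes had medians between -0.10 for root against shoot and 0.01 for rhizophore against root, while over all models tested the medians were 0.64 and -0.50. The biological coefficient of variation that edgeR estimated for the members, which is pulled toward the trend of all models, had a median of 0.312, against 0.332 in the window and 0.499 over all tested.

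Across the 150 members, of which 138 had distinct counts, the highest Pearson correlation of log2 deviations between any 2 libraries was between organs, at 0.48 for shoot replicate 2 and leaf replicate 2. The replicates of shoot had a correlation of 0.43, those of root 0.26, those of leaf 0.06 and those of rhizophore -0.04. The lowest value, -0.45, was that of shoot replicate 2 and root replicate 2. The order of the correlations thus did not follow the single organs. All pairs among shoot and leaf libraries were positive, from 0.02 to 0.48. All pairs of a shoot or leaf library with a root or rhizophore library were negative, from -0.45 to -0.17. Pairs among root and rhizophore libraries ran from -0.16 to 0.26, and those of a root with a rhizophore library from -0.16 to 0.005. The lowest, -0.160 for root replicate 1 with rhizophore replicate 1, lay close to the -0.173 of rhizophore replicate 2 with leaf replicate 2. Root and rhizophore were thus not clearly set apart as a group. The rule chose members on these same values. A model's 8 deviations sum to 0, which lowers all of these, and the values are a description over models that share their libraries and depths.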

How the data were processed

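RNA from 4 organs was amplified with a Nugen Ovation kit and sequenced in 8 single-end libraries, per the labels' protocols. The authors deposited raw counts for each gene model in every library, per the file headers. They also deposited a table of normalized signal averaged per organ, with no method stated in its header. Bowtie2 and edgeR are named in the submitters' processing notes. Neither labels nor headers state tool versions, how reads were counted, or which genome build and annotation were used. The smallest count above 0 was 5, and no member had a 0. Totals ran from 2826533 to 27891111 counts.

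The members and lists were chosen with earlier results of these data known. Libraries were scaled by TMM on all rows for the levels and the rule. For the tests, filterByExpr kept 23662 models, TMM was computed on these, and edgeR 4.0.16 in R 4.3.3 fitted all 8 libraries with a term per organ (robust quasi-likelihood), so that organs share a spread. Each SE is the absolute log2 fold change over the square root of F. DESeq2 1.42.0 and limma 3.58.1 were alternatives. The procedure was tested on simulated data. Named members follow a fixed rule: the 6 smallest ratios, the 3 highest and 3 lowest means, the 2 with the largest ratio of an organ mean to the other organs, the widest replicate split per organ, the models at the limit, every member of a pair and any member called, here by DESeq2 since edgeR called none. Paired members with no values of their own in the text are covered by their range. The 14 lists of functions could not be applied, because no identifier matched an annotation. TMM against other reference libraries, and leaving out libraries with the reference kept, were added after the data were seen.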

Additional observations from a re-analysis of the deposited data

How the results depend on the processing

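Of the 150 members, 95 were chosen again with upper-quartile factors, 0 with total counts alone, 87 with the 4 organ means in place of 8 libraries and 62 with organ means that count rhizophore replicate 2 as root. Leaving out a library gave 60 to 140, and 75 to 140 with the TMM reference kept (97 without root replicate 1), a setting chosen after seeing the data, as was TMM against other references. The number of members at or under the ratio of 1.67 was 0 with total counts alone, 92 with TMM against root replicate 2, and 122 to 150 without a library. Leaf replicate 1 was at an extreme for 13 members with total counts alone and for 72 with TMM against root replicate 2, where 43 were found with the default. DESeq2's test called 2, 1, 7, 5 and 1 members for rhizophore against root, rhizophore against shoot, root against shoot, leaf against root and leaf against rhizophore. Leaving out a library gave 0 to 2, 0 to 7, 0 to 22, 0 to 7 and 0 to 7 in the same order, while 6.76 to 38.3%, 7.45 to 42.0%, 0.742 to 55.0%, 0.337 to 43.5% and 7.82 to 39.7% of all models were called. These fits keep a lone library in an organ, assumed to vary like the others. A fit on only the 4 libraries of root and shoot called 1, with 55.3% of all models. The causes were not tested. With the replicate block, 0 members were called in every comparison. Deviations of same-numbered libraries correlated between -0.01 and 0.07. Little shared signal by replicate number was thus seen, which cannot tell whether the samples were paired. Leaf replicate 1, with as few as 47 counts for a member, limits how small a ratio can be seen.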

Other observations

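Models as even as the members also occurred outside the window. Of the 102 models whose lowest library was at 200 CPM or more, 21 (20.6%) had a ratio of highest to lowest library at or under that of the last member, and the median ratio was 2.24. Of the 10890 models with a minimum above 0 and under 20 CPM, 74 (0.680%) did, and the median ratio was 6.19. Counting error is larger at low levels, and its part in this difference was not tested.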
